A study of Drosophila melanogaster with 16 samples.

Results

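The cytochrome P450 genes were followed through an RNA-seq table of whole Drosophila melanogaster larvae. Members were the gene symbols that begin with Cyp and a digit, 70 of the 9982 genes in the table. Among them Cyp1 encodes a cyclophilin, a protein-folding enzyme and no P450, and it was set apart, which left 69 P450 genes. The family number in the symbol assigned 33 of them to clan 3 (Cyp6, Cyp9, Cyp28, Cyp309, Cyp310 and Cyp317), 24 to clan 4 (Cyp4, Cyp311, Cyp313 and Cyp318), 9 to the mitochondrial clan (Cyp12, Cyp49 and Cyp301) and 3 to clan 2 (Cyp18, Cyp304 and Cyp305). By the study's methods, genes low in all conditions had already been left out by a similar filter. All 69 passed the filter on low values, which asked for more than 1 normalized CPM in 3 or more libraries of any 1 group. Of these, Cyp12d1-d and Cyp6t1 passed only through control libraries, and Cyp313a3 and Cyp4ac2 only through libraries labelled grn RNAi. A further 16 of the 85 P450 symbols in the current gene name table were not among the 9982 genes. P450 genes under other symbols fall outside the rule. Those of ecdysone synthesis (phm and spok of clan 2, sad and shd of the mitochondrial clan) are given at the end and in none of the counts.

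P450s are haem enzymes that use molecular oxygen and electrons from a partner protein to oxidize a substrate. Insect P450s make and break down hormones such as ecdysone, build the hydrocarbons of the cuticle, and detoxify plant compounds and insecticides. Those of clans 2, 3 and 4 sit in the endoplasmic reticulum and take electrons from Cpr (cytochrome P450 reductase), often with cytochrome b5, whereas mitochondrial P450s use ferredoxin and its reductase dare. In fly larvae many clan 3 and clan 4 genes are known to be expressed in the midgut, the Malpighian tubules and the fat body, and many lie side by side in tandem arrays.

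The study asked how the GATA transcription factor Grain, encoded by grn, and dietary sugar shape metabolic gene expression. It compared 4 groups of 4 libraries, each library made from 20 pooled whole larvae. Larvae were moved 48 h after egg laying, as early 2nd instars by the growth protocol, to a low sugar diet (LSD, 10% yeast) or a high sugar diet (HSD, the same yeast with 15% sugar) for 8 h. The stage field of the labels names the 3rd instar instead, and the genotype field gives wild type on LSD and an erk7 mutant on HSD in both genotypes, so that groups were taken from the titles. By the study's methods all larvae carried the ubiquitous Tubulin-GAL4 driver. Control larvae expressed double-stranded RNA against luciferase from a TRiP insertion, and the other larvae a TRiP RNAi construct against grn. Each genotype came from 1 insertion line, and the effects of the RNAi and of the line cannot be told apart. Nothing in the labels says that the 4 libraries of a group came from separate cultures, so that p-values measure the spread between these samples.

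Read counts at the targeted gene went against its label. Values below are normalized CPM, read counts scaled by the authors for library size, listed from replicate 1 to replicate 4. grn was at 14.6, 17.8, 20.8 and 19.1 in control larvae on LSD and 20.1, 21.6, 23.4 and 17.1 on HSD. With the grn RNAi label it was at 227, 259, 229 and 240.3 on LSD and 207, 223, 231 and 215 on HSD. These are higher by a log2 fold change of 3.70 (SE 0.10) on LSD and 3.39 (SE 0.10) on HSD, and no control library reached any of them. The study itself reports that its RNAi lines lowered grn expression. The origin of the additional reads at grn was not tested. Every direction between genotypes below compares libraries by these labels. The libraries held 24038848 to 32644817 recovered reads. Control HSD replicate 3 and grn RNAi HSD replicate 4 stood apart on a principal component that held 11.4% of the variance, with scores of 25.67 and 31.69, and grn RNAi LSD replicate 3 lay at its other end, at -24.95. Counts without the first 2 and without all 3 are given with each comparison.

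P450 transcripts took a small share of all reads, and that share was lower in every library labelled grn RNAi than in every control library. The 69 genes summed to 2876 to 3116 normalized CPM in control larvae on LSD and 2545 to 2857 on HSD, against 1725 to 1834 and 1651 to 1828 in the libraries labelled grn RNAi. As a share of the reads this was 0.276% ± 0.00859 (SD, n = 4) in control LSD and 0.188% ± 0.00549 (SD, n = 4) in grn RNAi LSD. Clan 3 held the most in control larvae on LSD, with sums of 1359 to 1517, followed by clan 4 with 1037 to 1189, the mitochondrial clan with 346 to 367 and clan 2 with 67.8 to 116.5. With the grn RNAi label, also on LSD, the sums were 731 to 772 for clan 3, 662 to 734 for clan 4, 258 to 271 for the mitochondrial clan and 40.1 to 57.5 for clan 2. The 2 groups did not overlap in any of the 4 clans. In whole larvae fewer cells of a type and less RNA per cell cannot be told apart.

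Per kb of coding length, the levels in control larvae on LSD ran over 3 orders of magnitude, from a mean of 0.168 for Cyp313a3 to 187 normalized CPM per kb for Cyp28d2. The next levels per kb belonged to Cyp4g1 (176), an oxidative decarbonylase of the oenocytes that makes cuticular hydrocarbons, Cyp9b2 (118) and Cyp12a4 (95.7), a mitochondrial P450 linked to lufenuron resistance. Cyp4c3 (94.9), Cyp6a23 (88.6), Cyp6d5 (85.5), Cyp9f2 (69.8), Cyp4e2 (64.8) and Cyp4d1 (63.4) followed per kb. The libraries of Cyp28d2 ran from 183 to 192 per kb and those of Cyp4g1 from 165 to 187, so that these neighbours in the order overlapped. The order was not the same in the other groups. Cyp28d2 ranked first in control LSD, at rank 3 in control HSD, and at rank 12 and rank 23 in grn RNAi LSD and HSD, while Cyp4g1 ranked first in each of these last 3 groups.

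**Figure D1:**
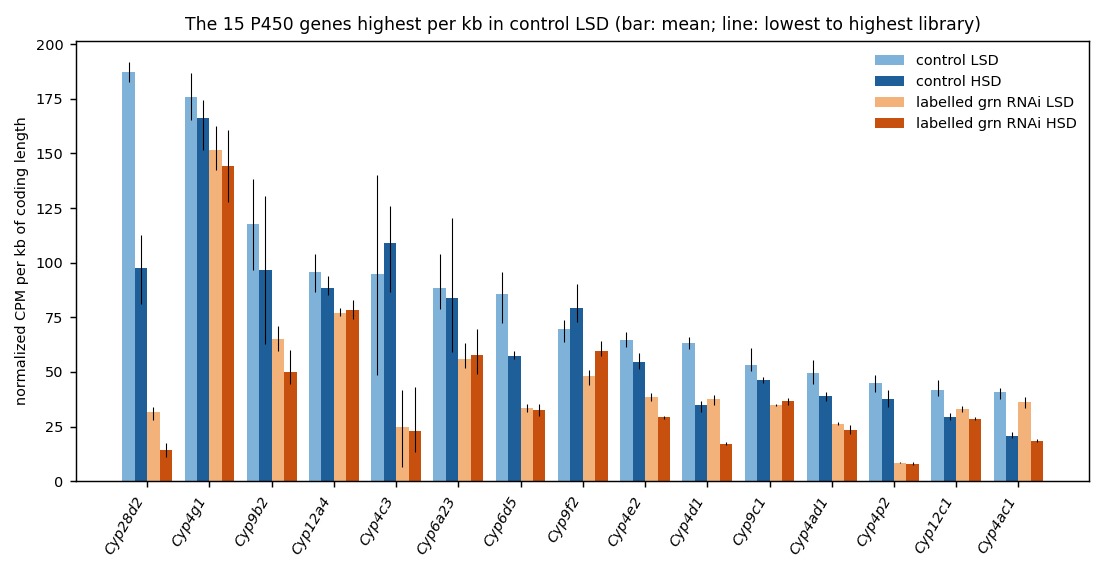
Mean normalized CPM per kb of coding length (vertical axis) of the 15 P450 genes that ranked highest in control larvae on LSD, with 4 bars a gene for the 4 groups and a line from the lowest to the highest library. Cyp28d2 stood at 187 per kb in control LSD and 14.2 in grn RNAi HSD, whereas Cyp4g1 stood at 176 and 144.

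Between the genotypes most P450 genes were lower in larvae labelled grn RNAi. On LSD, 52 of the 69 were lower and 6 higher (limma on log2 of the normalized CPM plus 0.5, Benjamini-Hochberg adjusted p under 0.05 over the 9950 genes tested). Over all genes tested 27.1% were called lower and 27.1% higher. The median log2 fold change was -0.62 over the P450 genes and 0.03 over all genes. By clan the lower and higher calls were 27 and 1 of 33 in clan 3, 17 and 3 of 24 in clan 4, 6 and 1 of 9 in the mitochondrial clan, and 2 and 1 of 3 in clan 2. For 46 of the 52 lower genes every library labelled grn RNAi lay below every control library, and for all 6 higher genes above, where 23.5% and 21.9% of all genes tested were called with no overlap in these directions. At least a 2-fold difference was reached by 19 of the lower genes and 1 of the higher, against 7.09% and 1.92% of all genes. Leaving aside the 4 genes that passed the filter through 1 genotype, 50 were lower and 4 higher.

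On HSD, 41 P450 genes were lower and 8 higher, where 21.2% of all genes tested were called lower and 17.9% higher. The median log2 fold change was -0.41, against 0.01 over all genes. Lower and higher calls numbered 19 and 3 in clan 3, 16 and 3 in clan 4, 4 and 1 in the mitochondrial clan, and 2 and 1 in clan 2. At least a 2-fold difference was reached by 12 of the lower genes, against 6.2% of all genes. Leaving aside the 4 genes that passed the filter through 1 genotype, 39 were lower and 6 higher on HSD. The comparisons on the 2 diets share no library, but they share 1 estimate of the spread of each gene and are not independent. In both, 38 genes were lower, which is 73.1% of the 52 on LSD and 92.7% of the 41 on HSD. Over all genes 17.3% were called lower on both diets, which is 64% of those lower on LSD and 81.7% of those lower on HSD. The 38 P450 genes were 19 of clan 3, 14 of clan 4, 3 of the mitochondrial clan and 2 of clan 2. Among them Cyp6t1 of clan 3 and Cyp12d1-d of the mitochondrial clan passed the filter only through control libraries. Without both libraries that stood apart, the LSD counts were 53 lower and 6 higher, and those on HSD 36 and 8. Without all 3 they were 48 and 5 on LSD and 34 and 8 on HSD. Rescaling moved the split: CPM without the authors' scaling gave 39 lower and 11 higher on LSD and 34 and 14 on HSD, and quantile normalization 47 and 9, and 36 and 13. Those settings moved the median of all genes to 0.22 and 0.15 with CPM, on LSD and HSD, and to 0.13 on each diet with quantile normalization. Across these scalings the P450 median, relative to that of all genes, stayed between -0.66 and -0.63 on LSD and between -0.42 and -0.40 on HSD.

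**Figure D2:**
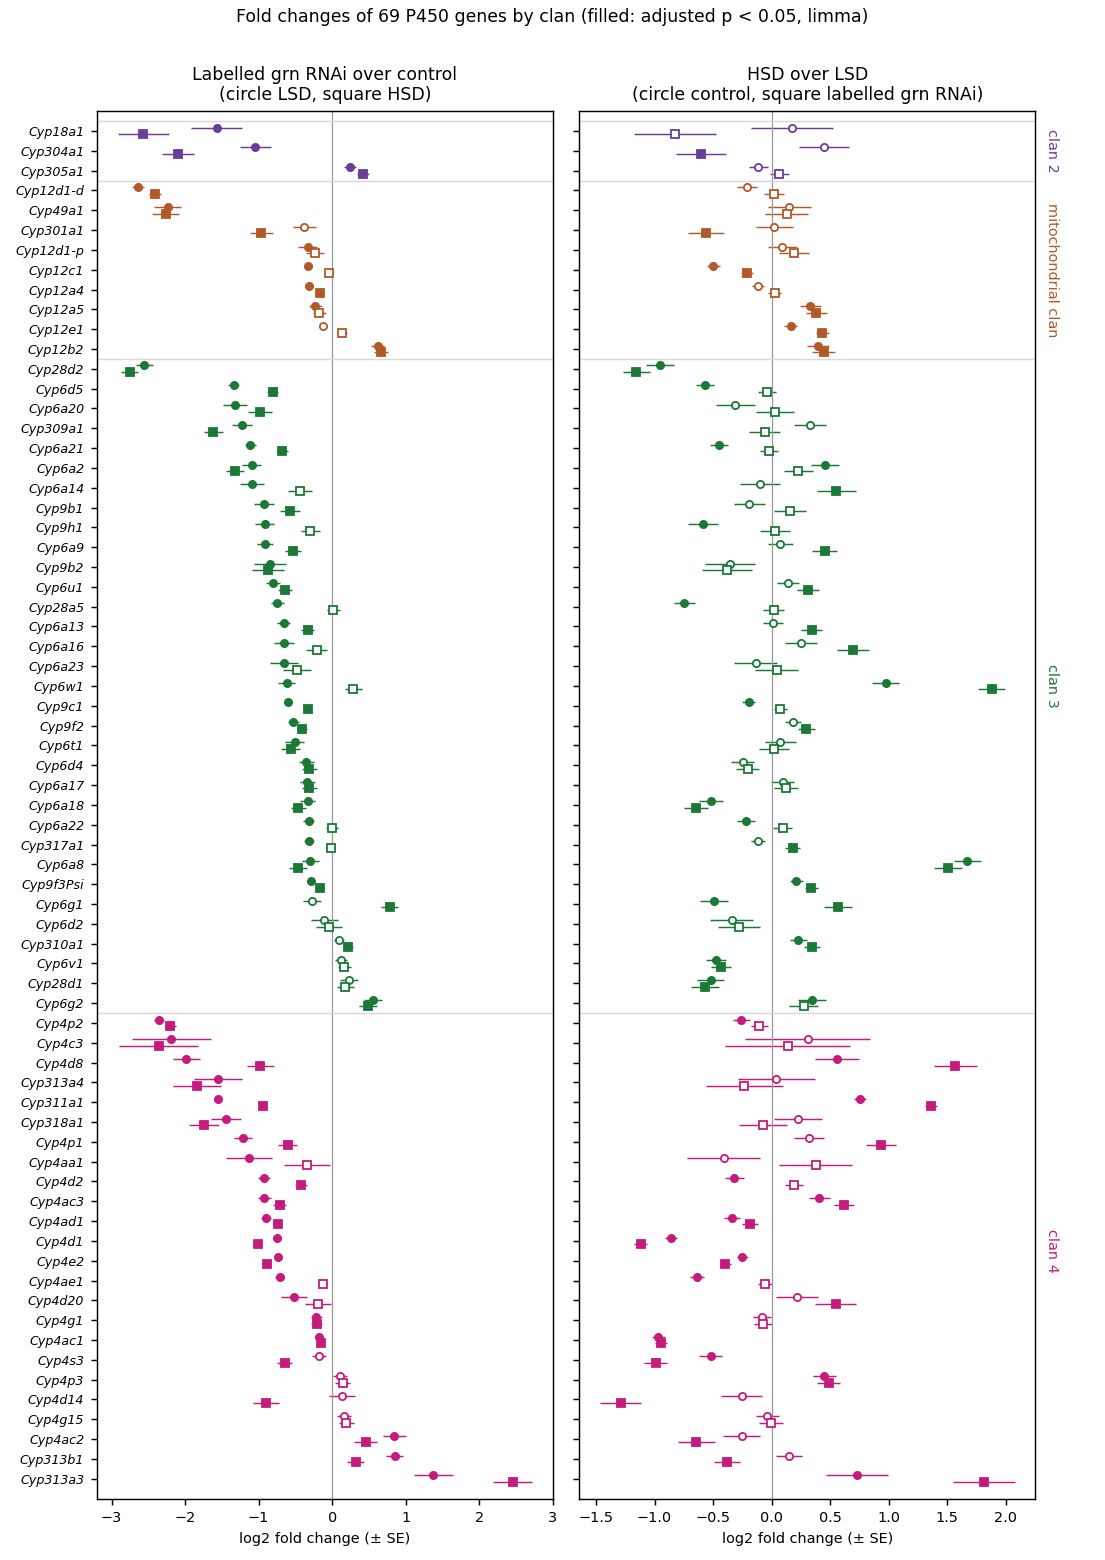
Log2 fold changes (horizontal axis, ± SE) of the 69 P450 genes, grouped by clan and sorted within it by the value on LSD. The left panel sets libraries labelled grn RNAi over control on LSD (circles) and HSD (squares), the right panel HSD over LSD in control (circles) and labelled grn RNAi (squares), and filled symbols passed. On the left the symbols of each clan lie mostly below 0, with medians of -0.62 on LSD and -0.41 on HSD, while on the right they lie on both sides.

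Midgut transcripts moved with the P450 genes between genotypes. Of 12 midgut markers, 11 were lower on LSD and 9 on HSD in larvae labelled grn RNAi, and none was higher. Of all genes tested, 27.1% were called lower and 27.1% higher on LSD, and 21.2% and 17.9% on HSD. The summed level of the midgut markers was 6507 to 7037 in control LSD and 6317 to 7009 in control HSD, against 3142 to 3408 in grn RNAi LSD and 4274 to 4562 in grn RNAi HSD. Of 7 Malpighian tubule markers 0 were lower on either diet and 1 and 2 were higher, with sums of 275 to 396 and 179 to 231 in control LSD and HSD and 248 to 275 and 195 to 220 in grn RNAi LSD and HSD. Uro weighed on these sums, with means of 148 and 21.6 in control LSD and HSD and 73.8 and 12.4 in the others. Between genotypes on LSD its libraries did not overlap, but it did not pass (-0.93, SE 0.47, adjusted p = 0.104). Of 3 fat body markers measured 0 passed on LSD and 1 was lower on HSD, with sums of 5927 to 8170 and 5099 to 6597 in control larvae and 5462 to 6440 and 4369 to 4833 in libraries labelled grn RNAi. Nearly all of each sum was Rfabg, with means of 6768 and 5650 in control LSD and HSD and 5989 and 4655 in the others. Lsp1beta (5.49, 0.530, 63.8 and 0.264 in control LSD) and Lsp1gamma (4.02, 1.55, 83.2 and 2.60) were low and scattered. Of 3 oenocyte markers 1 was higher on each diet, and 1 was lower on LSD. FASN3, a fatty acid synthase of the oenocytes, was higher (1.26 on LSD and 1.05 on HSD). FASN2 was lower on LSD (-0.27, adjusted p = 0.000582) and did not pass on HSD (-0.10, adjusted p = 0.167), and CG18031 passed on neither diet. The sum of the markers was 121 to 174 and 140 to 213 in control larvae and 228 to 259 and 247 to 280 in libraries labelled grn RNAi. Most of that rise was FASN3, with means of 81.3 and 189 on LSD, against 52.6 and 43.3 for FASN2. No marker was at 0 in any library. The part of these tissues in the P450 results was not tested.

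Clan 3 held Cyp28d2, the P450 gene with the highest level per kb in control larvae on LSD. Cyp28d2 (FBgn0031688, chromosome arm 2L from 5207267 to 5209345 on the plus strand, release 6 of the fly genome) was at 284, 288, 275 and 279 in control larvae on LSD and 122, 169, 161 and 133 on HSD. The libraries labelled grn RNAi held 42.2, 50.9, 47.4 and 50.2 on LSD and 21.5, 16.9, 21.0 and 26.0 on HSD. Every one of these 8 libraries lay below all 8 control libraries, with log2 fold changes of -2.55 (SE 0.12, adjusted p = 6.95e-10) on LSD and -2.75 (SE 0.12, adjusted p = 5.44e-10) on HSD. Its neighbour Cyp28d1, which is known for nicotine tolerance in Drosophila and lies on chromosome arm 2L from 5210460 to 5212445 on the plus strand, did not pass on either diet. It was at 16.3, 15.0, 19.8 and 13.5 in control LSD and 20.2, 17.4, 17.2 and 20.51 in grn RNAi LSD, groups that overlap (0.23, adjusted p = 0.119, and 0.18, adjusted p = 0.244 on HSD). On LSD its difference passed without control LSD replicate 3 (0.33), in the direction opposite to Cyp28d2.

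Other clan 3 genes with more than a 2-fold difference included enzymes known from insecticide studies. Cyp6d5, which is induced by caffeine in flies, was at 137, 128, 146 and 110.2 in control LSD and 49.2, 52.6, 48.5 and 54.1 in grn RNAi LSD (-1.34, SE 0.08, adjusted p = 6.01e-09). The HSD values were 85.8, 85.2, 90.9 and 88.0 and 51.8, 53.7, 45.4 and 48.1 (-0.81, SE 0.08). The groups were apart on both diets. Cyp6a2, an enzyme overexpressed in some DDT-resistant strains, was at 27.3, 33.0, 39.0 and 31.3 in control LSD and 13.8, 13, 15.5 and 17.6 in grn RNAi LSD (-1.10, SE 0.12, adjusted p = 4.84e-06). On HSD it was at 43.5, 41.4, 48.6 and 45.2 and 21.1, 14.3, 17.7 and 17.7 (-1.33, SE 0.12, adjusted p = 1.57e-06), again with no overlap. Cyp309a1 fell from 27.9 ± 5.49 (SD, n = 4) to 11.6 ± 2.11 on LSD and from 34.7 ± 0.522 to 11 ± 1.20 on HSD, with log2 fold changes of -1.22 and -1.61. Cyp9b2 was lower too (-0.84 on LSD and -0.87 on HSD), although its control HSD libraries split into 94.8, 99.9, 198 and 192 and the lower values of that group came close to the 71.6, 91.1, 72.5 and 67.4 of grn RNAi HSD.

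Many of these genes lie next to one another. By a distance of at most 10 kb between neighbours, 35 of the 69 P450 genes formed 13 groups. The group with the most genes held 8 clan 3 genes on chromosome arm 2R, from Cyp6a22 to Cyp317a1. All 8 were lower in larvae labelled grn RNAi on LSD, and 5 on HSD. Called lower on these diets were 75.4% and 59.4% of the P450 genes, and 27.1% and 21.2% of all genes tested. Along the array the log2 fold change on LSD was -0.32 for Cyp6a22, -0.34 for Cyp6a17, which acts in temperature preference, -0.66 for Cyp6a23 and -0.91 for Cyp6a9. It was -1.32 for Cyp6a20, a gene known from aggression, -1.11 for Cyp6a21, -0.30 for the xenobiotic-inducible Cyp6a8 and -0.32 for Cyp317a1. In the middle of the array Cyp6a20 was at 42.4, 28.4, 29.6 and 33.2 in control LSD and 14.6, 13, 11.3 and 12.8 in grn RNAi LSD, with no overlap (-1.32, SE 0.16, adjusted p = 1.23e-05). Next to it Cyp6a21 was at 35.0, 34.8, 36.0 and 32.8 and 16.4, 14.3, 15.1 and 17.3, also apart (-1.11, SE 0.08, adjusted p = 3.96e-08). The call of Cyp6a8 on LSD was lost without any 1 of control LSD replicates 1, 2 and 4, control HSD replicate 1, grn RNAi LSD replicates 1, 2 and 3 and grn RNAi HSD replicates 1 and 2 (-0.30 to -0.22). On HSD the call of Cyp6a17 was lost without any 1 of control HSD replicate 2 and grn RNAi HSD replicate 1 (-0.27 to -0.21), and that of Cyp6a23, which did not pass (-0.48, adjusted p = 0.0546), was gained without any 1 of control HSD replicates 1 and 2 and grn RNAi HSD replicate 2 (-0.63 to -0.57).

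**Figure D3:**
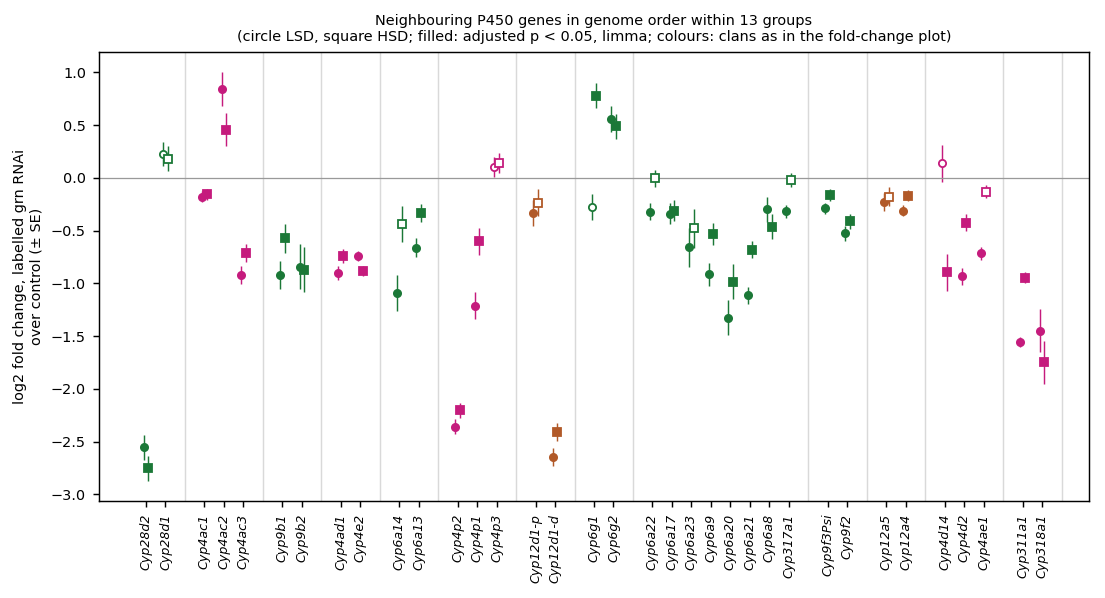
Log2 fold change of libraries labelled grn RNAi over control (vertical axis, ± SE) for 35 P450 genes in 13 groups of neighbours, in genome order, on LSD (circles) and HSD (squares), with filled symbols for adjusted p under 0.05. In the group of 8 all circles lie below 0, while Cyp28d1, Cyp4p3 and Cyp4ac2 lie above 0 next to neighbours that were lower.

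In the Cyp4p and Cyp4ac groups of clan 4 some neighbours were lower and others did not pass or were higher. Cyp4p2 (FBgn0033395, chromosome arm 2R from 9237512 to 9239831 on the plus strand) was at 75.5, 71.5, 69.5 and 63.4 in control LSD and 56.8, 58.9, 65.1 and 53.3 in control HSD. Larvae labelled grn RNAi held 12.8, 13.1, 13.7 and 13.4 on LSD and 14, 12, 11.3 and 12 on HSD, far below (-2.36, SE 0.07, adjusted p = 9.42e-12 on LSD, and -2.20, SE 0.07, adjusted p = 2.7e-11 on HSD). Cyp4p1, the middle gene, was lower by less, at 34.2 ± 2.07 and 14.6 ± 2.27 (SD, n = 4) on LSD (-1.21) and 43.1 ± 4.80 and 28.4 ± 5.30 on HSD (-0.60). Cyp4p3, the third of the array, was at 32.9, 25.2, 29.5 and 24.6 in control LSD and 31.9, 30.5, 27.4 and 30.2 in grn RNAi LSD, which overlap (0.10, adjusted p = 0.392, and 0.14, adjusted p = 0.271 on HSD). In the Cyp4ac array Cyp4ac3 was lower (-0.92 on LSD and -0.71 on HSD) and Cyp4ac2 higher (0.84 and 0.46). The Cyp4ac2 libraries held 0.9947, 0.928, 1.5 and 1.63 in control LSD and 2.63, 2.40, 2.46 and 3.01 in grn RNAi LSD, low levels that did not overlap. On HSD the call of Cyp4ac2 was lost without any 1 of control HSD replicates 1, 3 and 4 and grn RNAi HSD replicates 2, 3 and 4 (0.38 to 0.47). The log2 fold change of Cyp4ac1 was small (-0.18 and -0.16), it turned to 0.02 on LSD with CPM without the authors' scaling, and on HSD the call was lost without any 1 of control HSD replicates 3 and 4 and grn RNAi HSD replicates 1, 2 and 4 (-0.16 to -0.12).

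Clan 4 also held Cyp311a1, whose libraries varied little within a group. Cyp311a1 (FBgn0030367, chromosome arm X from 12029754 to 12031465 on the minus strand), which is known to act in lipid handling in the anterior midgut, was at 11.7, 10.6, 11.2 and 10.5 in control LSD and 3.38, 3.32, 3.26 and 3.69 in grn RNAi LSD. The HSD values were 18.4, 19.2, 18.3 and 19.4 and 9.17, 9.97, 9.38 and 9.69. Neither pair of groups came close to overlapping, and the log2 fold changes were -1.55 (SE 0.05, adjusted p = 1.45e-11) and -0.95 (SE 0.05, adjusted p = 6.54e-09). Its neighbour Cyp318a1, on the other strand, was lower as well (-1.45 and -1.75). Cyp4d8, at 3.59, 2.03, 3.64 and 2.42 in control LSD, held 0.318, 0.342, 0.332 and 0.389 in grn RNAi LSD (-1.99, SE 0.19, adjusted p = 7.68e-07). Cyp4d1 fell from 131 ± 4.53 to 77.6 ± 4.32 (SD, n = 4) on LSD and from 72.2 ± 4.67 to 35.5 ± 1.45 on HSD, with log2 fold changes of -0.76 and -1.01. Cyp4e2 and Cyp4ad1, which are neighbours on chromosome arm 2R, were both lower, with log2 fold changes of -0.74 and -0.90 on LSD and -0.88 and -0.74 on HSD. Cyp313a4 was lower on both diets (-1.56 and -1.83) from control means of 10.7 ± 4.12 on LSD and 10.6 ± 2.67 on HSD.

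For 2 abundant clan 4 genes the spread between libraries was wide or the difference small. Cyp4c3 was at 225, 112, 78.4 and 194 in control LSD and 18.5, 62.1, 10.7 and 67.2 in grn RNAi LSD. The HSD values were 179, 202, 180.4 and 139 and 25.1, 69.2, 21.7 and 32.9. The groups did not overlap on either diet, but in 3 of the 4 groups, all but control HSD, the libraries spanned several fold, and the log2 fold changes of -2.19 and -2.36 had an SE of 0.53 (adjusted p = 0.0033 and 0.00288). Cyp4g1 was at 284, 311.4, 275 and 303.04 in control LSD and 271, 257, 244 and 237 in grn RNAi LSD, and at 291, 285, 280.5 and 253 and 213, 260.1, 268 and 222 on HSD. Its log2 fold changes of -0.22 and -0.21 passed with the authors' scaling and turned to 0.06 and 0.02 with quantile normalization. The call was lost on LSD without any 1 of control LSD replicates 2 and 4 and grn RNAi LSD replicates 3 and 4 (-0.20 to -0.19) and on HSD without any 1 of control HSD replicates 1, 2 and 3 and grn RNAi HSD replicates 1 and 4 (-0.20 to -0.15).

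**Figure D4:**
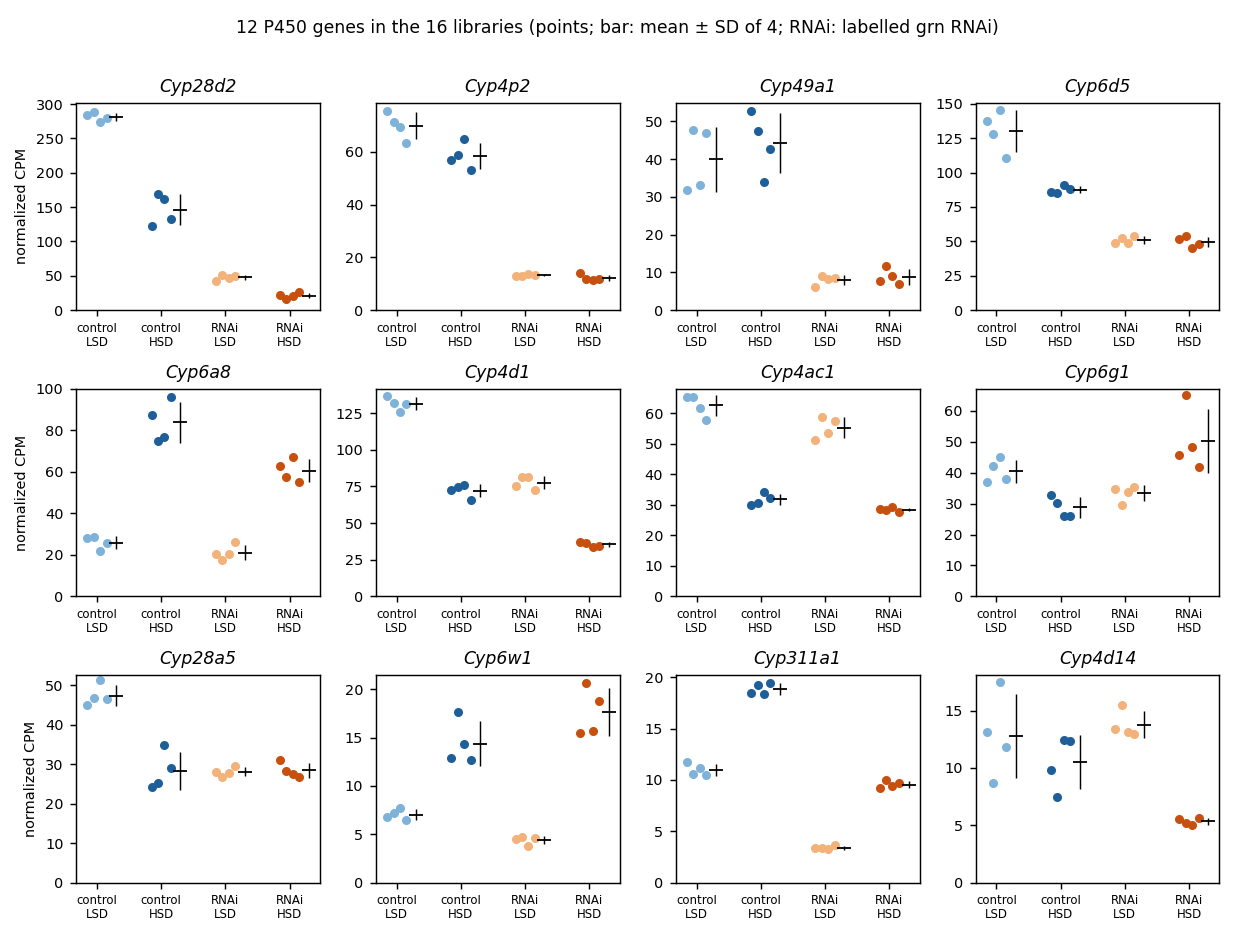
Normalized CPM (vertical axis, from 0, a scale for each gene) of 12 P450 genes in the 16 libraries, with points for libraries and bars for the mean ± SD of the 4 libraries of a group. Cyp28d2, Cyp4p2, Cyp49a1 and Cyp6d5 lie lower in the groups labelled grn RNAi, Cyp6a8 lies higher on HSD and Cyp4d1 and Cyp4ac1 lower on HSD in both genotypes, and Cyp6g1 moves in opposite directions, from 40.6 to 28.8 in control and from 33.4 to 50.3 in the other larvae.

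In the mitochondrial clan a pair of genes stood far below control. Cyp49a1 (FBgn0033524, chromosome arm 2R from 10449350 to 10458892 on the minus strand) was at 31.9, 47.7, 33.1 and 46.9 in control LSD and 6.19, 8.97, 8.24 and 8.59 in grn RNAi LSD. On HSD it was at 52.6, 47.6, 34.0 and 42.6 and 7.82, 11.8, 8.99 and 6.92, so that all libraries labelled grn RNAi lay below all control libraries (-2.24, SE 0.18, adjusted p = 2.27e-07 on LSD, and -2.26, SE 0.18, adjusted p = 4.56e-07 on HSD). Cyp12d1-d, a copy of the insecticide-inducible Cyp12d1, was at 2.64, 2.92, 2.69 and 2.29 in control LSD and 0 in the 4 libraries of grn RNAi LSD. The gene passed the filter on low values only through control libraries, the groups where it was high. With 247 reads over the control LSD libraries its level there was at least 109.5-fold higher, against a floor of 3 reads over the group. On HSD 226 reads stood against 1 read, in grn RNAi HSD replicate 1, a ratio of 254 with a 95% interval of 45.2 to 10100 for counting error only. The other copy, Cyp12d1-p, was at 3.51 ± 0.745 in control LSD and 2.65 ± 0.295 (SD, n = 4) in grn RNAi LSD. The copies are nearly identical neighbours on chromosome arm 2R. By the study's methods reads under a quality score were discarded in counting. Reads that fit both copies may therefore be missing from each, and the values need not give the whole level of either copy. Summed over both, the values fell from 6.15 ± 0.895 to 2.65 ± 0.295 (SD, n = 4) on LSD and from 5.93 ± 0.462 to 3.11 ± 0.353 on HSD. This sum need not be the whole level of Cyp12d1.

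Of the other mitochondrial P450s, Cyp301a1, which acts in adult cuticle formation, was lower on HSD, at 58.4, 69.9, 48.4 and 48.7 in control and 19.3, 31.2, 30.9 and 34.5 in grn RNAi libraries (-0.96, SE 0.16, adjusted p = 0.000216). On LSD its value was -0.38 (adjusted p = 0.0505), which passed without any 1 of control LSD replicate 3, control HSD replicates 2 and 3 and grn RNAi HSD replicates 1 and 4 (-0.44 to -0.38). Cyp12a4, the most abundant of the clan per kb, was lower on LSD (154 ± 12 and 124 ± 2.75, SD, n = 4, log2 fold change -0.31). On HSD its log2 fold change of -0.17 passed with the authors' scaling, turned to 0.06 with quantile normalization, and lost the call without any 1 of control HSD replicate 3 and grn RNAi HSD replicate 4 (-0.14). Cyp12c1 was lower on LSD (-0.33) and did not pass on HSD (-0.04, adjusted p = 0.558). Cyp12b2 was the 1 member of the clan that was higher on both diets, at 3.29, 3.76, 3.25 and 3.56 in control LSD and 4.71, 6.06, 5.18 and 6.48 in grn RNAi LSD, groups that did not overlap (0.62, and 0.67 on HSD).

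Of clan 2, which includes enzymes of ecdysone metabolism, 3 genes carry a Cyp symbol here. Cyp18a1 (FBgn0010383, chromosome arm X from 18688538 to 18693042 on the minus strand) encodes the 26-hydroxylase that inactivates ecdysteroids. It was at 64.1, 49.4, 38.8 and 82.1 in control LSD and 10.9, 29.4, 13.8 and 27 in grn RNAi LSD, and at 59.1, 71.6, 61.4 and 63.2 and 9.71, 18.9, 10.4 and 5.78 on HSD. The groups did not overlap on either diet, but the spread was wide (-1.57, SE 0.35, adjusted p = 0.00164 on LSD, and -2.57, SE 0.35, adjusted p = 4.75e-05 on HSD). Cyp304a1 was lower on LSD, at 15.4, 18.2, 12.4 and 16.1 and 8.21, 7.08, 6.95 and 6.61 (-1.05, SE 0.21, adjusted p = 0.000938). On HSD it was at 29.5, 29.6, 13.7 and 16.7 and 5.43, 5.18, 4.11 and 3.76 (-2.10, SE 0.21, adjusted p = 3.7e-06), with the control libraries of replicates 1 and 2 far above those of replicates 3 and 4. Cyp305a1 was the 1 of these 3 that was higher, at 16.1 ± 1.49 and 21.7 ± 2.62 (SD, n = 4) on HSD (0.42, adjusted p = 0.00104). On LSD its call (0.24) was lost without any 1 of control LSD replicates 2 and 3 and grn RNAi LSD replicates 1, 2 and 3 (0.21 to 0.23).

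Most of the remaining P450 genes of clans 3 and 4 were lower as well. On LSD 75.4% of the P450 genes and 27.1% of all genes tested were called lower. All 6 genes of family 9 were lower on LSD, with log2 fold changes of -0.92 for Cyp9b1, -0.92 for Cyp9h1, -0.84 for Cyp9b2, -0.60 for Cyp9c1, -0.53 for Cyp9f2 and -0.29 for Cyp9f3Psi, a symbol that the current annotation lists as the protein-coding Cyp9f3. On HSD Cyp9h1 did not pass (-0.30, adjusted p = 0.0833), and the call of Cyp9f3Psi (-0.16) was lost without any 1 of control HSD replicates 2, 3 and 4 and grn RNAi HSD replicates 1, 2, 3 and 4 (-0.17 to -0.14). Cyp9f2, the second of the family per kb, was at 98.3, 112, 107 and 114 in control LSD and 67.9, 75.2, 78.5 and 77.8 in grn RNAi LSD, which did not overlap. In family 6, Cyp6u1 (-0.81 on LSD and -0.64 on HSD), Cyp6a13 (-0.66 and -0.33) and Cyp6d4 (-0.35 and -0.31) were lower on both diets, and the call of Cyp6d4 on HSD was lost without any 1 of control HSD replicates 3 and 4 and grn RNAi HSD replicates 2 and 4 (-0.30 to -0.24). Cyp6a14 (-1.09) and Cyp6a16 (-0.66) were lower on LSD and did not pass on HSD (-0.44, adjusted p = 0.0507, and -0.21, adjusted p = 0.244), although Cyp6a14 passed on HSD without any 1 of control LSD replicates 2, 3 and 4, control HSD replicate 1 and grn RNAi HSD replicate 2 (-0.55 to -0.44). In clan 4, Cyp4aa1 was lower on LSD (-1.14, adjusted p = 0.00689) from 25, 15.9, 24.2 and 17.6 in control to 9.63, 9.17, 6.48 and 11.2, and on HSD it did not pass (-0.35, adjusted p = 0.405) at 7.98, 12.7, 30.2 and 16.9 in control and 12.6, 11.2, 8.68 and 15.7 in the others, a wide spread. The call of Cyp4d20 on LSD (-0.52) was lost without any 1 of control LSD replicates 1 and 3 and grn RNAi LSD replicate 2 (-0.46 to -0.39). Cyp12e1 of the mitochondrial clan did not pass on either diet (-0.13, adjusted p = 0.0618, and 0.14, adjusted p = 0.0577 on HSD), but on HSD it passed as higher without any 1 of control HSD replicate 3 and grn RNAi HSD replicate 4 (0.17 to 0.19).

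Of the 69 genes with Cyp symbols few were higher on both diets. These 6 were Cyp313a3, Cyp313b1 and Cyp4ac2 of clan 4, Cyp6g2 of clan 3, Cyp12b2 and Cyp305a1, where 14.1% of all genes tested were called higher on both. Cyp313a3 and Cyp4ac2 passed the filter on low values only through the libraries labelled grn RNAi, the groups where they were high. Cyp313a3 had the largest log2 fold changes of these, at 0.259, 0.177, 0.515 and 0.0440 in control LSD and 1.01, 1.27, 1.83 and 1.56 in grn RNAi LSD (1.37, SE 0.26, adjusted p = 0.000568). On HSD it was at 0.929, 0.815, 0.544 and 0.594 and 9.38, 4.32, 3.91 and 8.81 (2.46, SE 0.26, adjusted p = 5.62e-06). The groups did not overlap, and the gene was near the floor of detection in control larvae, so that the pseudocount makes these log2 differences smaller than the ratio of the means. Cyp313b1 was at 6.49, 5.88, 6.45 and 6.78 in control LSD and 11.3, 12.2, 10.9 and 13.4 in grn RNAi LSD (0.85, SE 0.11, adjusted p = 2.14e-05). On HSD its call (0.32) was lost without any 1 of control HSD replicates 2, 3 and 4 and grn RNAi HSD replicates 2 and 3 (0.24 to 0.33). Cyp6g2, which can confer insecticide resistance when overexpressed, was at 2.51, 2.25, 2.22 and 2.60 in control LSD and 3.18, 3.46, 3.95 and 4.57 in grn RNAi LSD, and its log2 fold change was 0.56 there and 0.49 on HSD. On HSD Cyp6g1 (0.78) and Cyp310a1 (0.22) were also higher, and the call of Cyp310a1 was lost without any 1 of control HSD replicates 1 and 2 and grn RNAi HSD replicates 2 and 3 (0.18 to 0.21).

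The diet comparison asked how 8 h on sugar changed P450 transcripts. In control larvae 20 of the 69 were lower on HSD than on LSD and 14 higher, where 22.3% of all genes tested were called lower and 19.3% higher. The median log2 fold change was -0.08, against 0.02 over all genes. By clan the lower and higher calls were 11 and 6 of 33 in clan 3, 8 and 5 of 24 in clan 4, 1 and 3 of 9 in the mitochondrial clan and 0 and 0 of 3 in clan 2. Without both libraries that stood apart these counts were 23 and 12, and without all 3 they were 23 and 11. Of the 69 genes 15 were lower on HSD in larvae labelled grn RNAi and 22 higher, where 23.3% of all genes were called lower and 18.3% higher, with a median of 0.04 against -0.02. These were 4 and 12 in clan 3, 8 and 7 in clan 4, 2 and 3 in the mitochondrial clan and 1 and 0 in clan 2. Without both libraries they were 14 and 22, and without all 3 they were 13 and 19. In clan 2 the lone call, of Cyp304a1 (-0.60), was lost without any 1 of grn RNAi LSD replicates 1, 2 and 3 and grn RNAi HSD replicates 3 and 4 (-0.62 to -0.52), while in control larvae that gene (0.45, adjusted p = 0.109) passed in the other direction without control HSD replicate 3 (0.65).

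Markers of other tissues moved with diet too. Of the 12 midgut markers 6 were higher and 2 lower on HSD in control larvae, and 11 and 0 in the libraries labelled grn RNAi, with the sums given above. In control larvae 19.3% of all genes tested were called higher and 22.3% lower, and in the others 18.3% and 23.3%. Of the 7 Malpighian tubule markers 0 were higher and 2 lower in control larvae and 2 and 2 in the others. Of the 3 oenocyte markers 1 was higher and 0 lower in each genotype, with log2 fold changes of 0.83 in control and 1.01 in the other larvae for FASN2, a fatty acid synthase. Of the 3 fat body markers 0 were higher and 1 lower in each genotype, with -0.26 and -0.36 for the lipoprotein gene Rfabg. Their part in the diet results of the P450 genes was not tested.

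The diet comparisons in the 2 genotypes share no library, but they too share 1 estimate of the spread of each gene. Lower on HSD in both were 10 genes, which is 50% of the 20 in control larvae and 66.7% of the 15 in larvae labelled grn RNAi. Over all genes tested 15.8% were lower in both, or 70.9% and 67.8% of those lower in each. Higher in both were 12 P450 genes, or 85.7% of 14 and 54.5% of 22. Over all genes 11.3% were higher in both, or 58.5% and 61.5% of those higher in each. Across the 69 genes, which are not independent replicates, the log2 fold changes of the genotypes correlated with Pearson's r of 0.717 and Spearman's rho of 0.64, against 0.698 and 0.634 over all 9950 genes.

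**Figure D5:**
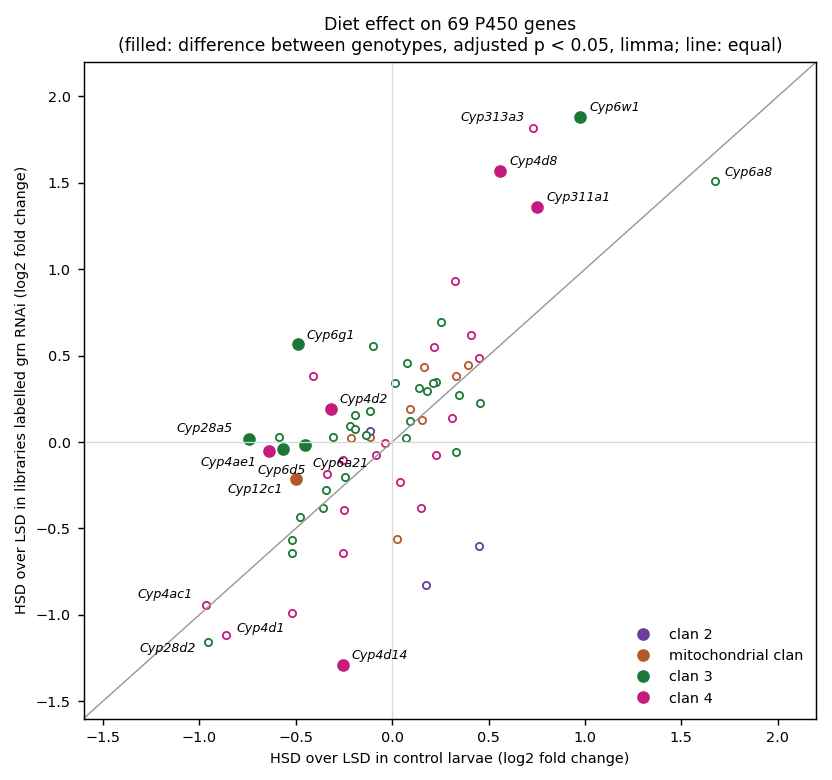
Log2 fold change of HSD over LSD in control larvae (horizontal axis) against libraries labelled grn RNAi (vertical axis) for 69 P450 genes, coloured by clan. Filled points are the 11 genes whose diet effect differed between genotypes and the line marks equal effects. Most points lie along the line, Cyp6g1 lies at upper left, and 10 of the 11 filled points lie above the line.

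Among P450 genes Cyp6a8 rose the most on HSD in control larvae. Cyp6a8 (FBgn0013772, chromosome arm 2R from 14887171 to 14889010 on the minus strand) encodes a fatty acid hydroxylase that xenobiotics induce. It was at 28, 28.5, 21.7 and 25.6 in control LSD and 87.4, 75.1, 76.9 and 96.1 in control HSD, and at 20.3, 17.7, 20.3 and 26.1 and 62.9, 57.3, 67.3 and 55.1 in the libraries labelled grn RNAi. No LSD library reached an HSD library in either genotype (1.67, SE 0.12, adjusted p = 9.7e-08 in control, and 1.51, SE 0.12, adjusted p = 1.73e-07 in the others). None of its 7 neighbours in the array was higher on HSD in control larvae, and Cyp6a21 (-0.45) and Cyp6a22 (-0.22) were lower. The Cyp6a22 call was lost without any 1 of control LSD replicates 1 and 4 and control HSD replicates 2, 3 and 4 (-0.21 to -0.17). In the libraries labelled grn RNAi Cyp6a9 (0.46) and Cyp317a1 (0.18) were higher, and the Cyp317a1 call was lost without any 1 of grn RNAi LSD replicates 1 and 2 and grn RNAi HSD replicates 1 and 3 (0.14 to 0.18).

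Other P450 genes higher on HSD lay in clans 3 and 4, which hold most of the members, and in the mitochondrial clan. In control larvae 18.2% of clan 3, 20.8% of clan 4 and 33.3% of the mitochondrial clan were called higher. Cyp6w1 was at 6.75, 7.16, 7.72 and 6.47 in control LSD and 12.9, 17.7, 14.4 and 12.6 in control HSD (0.97, SE 0.11, adjusted p = 1.3e-05). Larvae labelled grn RNAi held 4.48, 4.72, 3.76 and 4.63 on LSD and 15.4, 20.6, 15.7 and 18.7 on HSD (1.88, SE 0.11, adjusted p = 1.08e-08). Both pairs of groups were apart. Cyp311a1, whose values are given above, rose on HSD by 0.75 in control and 1.36 in the other larvae. Cyp4d8 rose from 0.345 ± 0.0307 to 2.05 ± 0.570 (SD, n = 4) in larvae labelled grn RNAi (1.57, SE 0.19, adjusted p = 1.12e-05), while its smaller value in control larvae (0.56) was lost without any 1 of control LSD replicates 2 and 4 and control HSD replicates 1 and 3 (0.43 to 0.51). Cyp313a3 rose likewise in the libraries labelled grn RNAi (1.81, adjusted p = 7.43e-05), and its call in control larvae (0.73) was lost without any 1 of control LSD replicates 1, 2 and 4 and control HSD replicates 1, 2 and 4 (0.59 to 0.78). Cyp4p3 rose in both genotypes (0.45 and 0.49), as did Cyp4ac3 (0.41 and 0.62), and Cyp6a2 had 0.46, adjusted p = 0.00879 in control and 0.23, adjusted p = 0.157 in the others, with an interaction that did not pass (-0.23, adjusted p = 0.496). Of the mitochondrial clan Cyp12b2 rose in both (0.40 and 0.44), as did Cyp12a5 (0.33 and 0.38).

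Genes lower on HSD in both genotypes included abundant ones. Cyp4ac1 (FBgn0031693, chromosome arm 2L from 5264001 to 5265899 on the plus strand) was at 65.3, 65.2, 61.6 and 57.8 in control LSD and 30.1, 30.6, 34.1 and 32.1 in control HSD. Larvae labelled grn RNAi held 51.2, 58.6, 53.6 and 57.3 on LSD and 28.5, 28.2, 29.2 and 27.7 on HSD. The fall was close to 2-fold in both and the diets did not overlap (-0.97, SE 0.05, adjusted p = 9.74e-09, and -0.94, SE 0.05, adjusted p = 6.4e-09). Cyp4d1 was at 137, 132, 126 and 131 in control LSD and 72.3, 74.8, 76.2 and 65.6 in control HSD, and at 75.3, 81.4, 81.1 and 72.8 and 37.1, 36.3, 33.9 and 34.6 in the other larvae (-0.86, SE 0.05, adjusted p = 2.38e-08, and -1.12, SE 0.05, adjusted p = 7.31e-10). All 4 groups of this gene were apart except control HSD and grn RNAi LSD, whose ranges overlapped. The neighbours Cyp28d2 and Cyp28d1 were both lower on HSD (-0.95 and -0.52 in control, -1.15 and -0.57 in the others). Cyp4s3 had log2 fold changes of -0.52 in control and -0.99 in the others, Cyp6a18 of -0.52 and -0.64, Cyp6v1 of -0.48 and -0.43, and Cyp4e2 of -0.25 and -0.39.

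The difference of the diet effect between the genotypes was tested as an interaction. It passed for 11 P450 genes, 10 with a more positive diet effect in the libraries labelled grn RNAi and 1 with a more negative one, where 3.72% and 1.63% of all genes tested were called in these directions. By clan they were 5 and 0 in clan 3, 4 and 1 in clan 4, 1 and 0 in the mitochondrial clan and 0 and 0 in clan 2. Without both libraries that stood apart they were 12 and 1, without all 3 they were 9 and 1, with CPM without the authors' scaling 8 and 5, and with DESeq2 16 and 5. In clan 3 the count was 8 without control HSD replicate 3, and in clan 4 it was 3 without grn RNAi LSD replicate 2. Of the 12 midgut markers 6 passed in the first direction and 0 in the second, and their part in these results was not tested. The 1 gene that passed in opposite directions in the genotypes was Cyp6g1 (FBgn0025454, chromosome arm 2R from 12185667 to 12188431 on the plus strand), known for resistance to DDT and neonicotinoids. It was at 36.9, 42.2, 45.0 and 38.1 in control LSD and 32.9, 30.3, 25.9 and 26.0 in control HSD, lower on sugar and apart (-0.49, SE 0.12, adjusted p = 0.005). With the grn RNAi label it was at 34.9, 29.5, 33.7 and 35.3 and 45.8, 65.2, 48.2 and 41.8, higher on sugar and apart (0.57, SE 0.12, adjusted p = 0.00172). The interaction was 1.06 on the log2 scale (SE 0.17, adjusted p = 0.00294). Cyp6g1 and Cyp6g2 overlap by 94 bases at their 3′ ends on opposite strands, and reads were counted by strand.

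In 6 of the other genes the log2 diet effect was negative in control larvae and closer to 0 or positive in the libraries labelled grn RNAi. Cyp28a5 was at 45.0, 46.6, 51.2 and 46.5 in control LSD and 24.2, 25.1, 34.8 and 29.1 in control HSD, while the libraries labelled grn RNAi held 28.1, 26.8, 27.7 and 29.5 and 31.0, 28.3, 27.5 and 26.7. The diet effect was -0.74 in control and 0.02 in the others, and the interaction was 0.76, SE 0.13, adjusted p = 0.00384. Control LSD alone stood above the other 3 groups. The same held for Cyp4ae1 at a lower level, 6.4, 6.98, 7.01 and 6.65 in control LSD and 3.99, 3.84, 4.61 and 4.27 in control HSD against 4.02, 4.0, 3.89 and 3.79 and 3.58, 3.89, 3.60 and 4.0 (0.58, SE 0.09, adjusted p = 0.00157). Cyp6d5 had diet effects of -0.57 and -0.04 in the genotypes (0.53, adjusted p = 0.0111), Cyp4d2 of -0.32 and 0.19 (0.51, adjusted p = 0.0189), and Cyp6a21 of -0.45 and -0.02 (0.43, adjusted p = 0.0329). Cyp12c1 had -0.50 and -0.21 (0.28, adjusted p = 0.0411). The call of Cyp6a21 was lost without any 1 of control LSD replicates 1, 2 and 3, control HSD replicates 1, 2 and 4, grn RNAi LSD replicates 2 and 3 and grn RNAi HSD replicates 1 and 4 (0.39 to 0.43). That of Cyp12c1 was lost without any 1 of control LSD replicates 1 and 3, control HSD replicates 1, 2 and 4, grn RNAi LSD replicates 1, 2, 3 and 4 and grn RNAi HSD replicates 1, 2, 3 and 4 (0.23 to 0.30).

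In 3 more genes the rise on sugar was larger in the libraries labelled grn RNAi. The interaction was 0.61, SE 0.07, adjusted p = 0.000339 for Cyp311a1 and 0.91, SE 0.16, adjusted p = 0.00507 for Cyp6w1, and no library left out alone ended either call. Cyp6w1 was lower than control on LSD (-0.62) and not on HSD (0.29, adjusted p = 0.0592). For Cyp4d8 the interaction was 1.01, SE 0.26, adjusted p = 0.0396, lost without any 1 of control LSD replicates 1 and 3, control HSD replicates 2 and 4, grn RNAi LSD replicates 1, 2, 3 and 4 and grn RNAi HSD replicates 2, 3 and 4 (0.87 to 1.06). The gene in the second direction was Cyp4d14, at 13.1, 8.70, 17.5 and 11.8 in control LSD and 9.80, 7.49, 12.5 and 12.4 in control HSD, which overlap, and 13.4, 15.5, 13.2 and 13 and 5.53, 5.18, 5.01 and 5.60 in the other larvae, which do not. Its interaction was -1.03, SE 0.25, adjusted p = 0.028, and it was lost without any 1 of control HSD replicate 4, grn RNAi LSD replicate 2 and grn RNAi HSD replicates 1 and 2 (-1.05 to -0.95). Its neighbours Cyp4d2 and Cyp4ae1 on the X chromosome passed in the first direction.

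A pair of P450 genes passed in none of the 4 comparisons between 2 groups. Cyp4g15, a P450 of the nervous system, was at 10.2, 10.4, 7.80 and 9.15 in control LSD, 9.64, 9.54, 7.66 and 9.73 in control HSD, 10.1, 10.2, 10.6 and 11.1 in grn RNAi LSD and 11.5, 9.23, 9.70 and 11.7 in grn RNAi HSD, and the groups of each comparison overlapped. Cyp6d2, a gene linked to camptothecin tolerance, was near 2 normalized CPM throughout, from 1.125 to 3.01 in control HSD and from 1.81 to 2.36 in grn RNAi LSD. Its diet effect in control larvae (-0.34, adjusted p = 0.149) passed without control HSD replicate 3 (-0.55). Cyp1, the cyclophilin that the symbol rule also caught, was at 1064 ± 60.8 (SD, n = 4) in control LSD and 1095 ± 57.1 in grn RNAi LSD and did not pass between genotypes.

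Most genes for partner proteins and haem enzymes were called lower on LSD. Of 15 genes, 10 were lower on LSD in larvae labelled grn RNAi and 1 was higher, and on HSD 6 and 2. Over all genes tested 27.1% were called lower and 27.1% higher on LSD, and 21.2% and 17.9% on HSD. Cpr, the reductase of the microsomal P450s, was at 436, 414, 441 and 443 in control LSD and 279, 294, 281 and 287 in grn RNAi LSD, which do not overlap (-0.60, SE 0.05, adjusted p = 4.5e-07, and -0.55 on HSD). Cyt-b5 was lower by a similar amount (-0.61 and -0.68), and so was Alas, the first enzyme of haem synthesis, on LSD (-0.61, and -0.35 on HSD). Of the mitochondrial partners, the ferredoxin Fdx1 did not pass on LSD (-0.05, adjusted p = 0.468) and was higher on HSD (0.21, adjusted p = 0.00618), while dare passed on neither diet (-0.14, adjusted p = 0.0614, and -0.09, adjusted p = 0.246 on HSD). The ferredoxin Fdx2 was lower on LSD (-0.40, adjusted p = 4.75e-05) and did not pass on HSD (-0.14, adjusted p = 0.0668). On sugar 9 of the 15 were lower and 1 higher in control larvae, and 3 and 2 in the others. Over all genes tested 22.3% were called lower and 19.3% higher in control larvae, and 23.3% and 18.3% in the others. Cyt-b5-r, the reductase of cytochrome b5, fell on sugar, with log2 fold changes of -0.84 in control and -0.61 in the others.

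Of the ecdysone synthesis genes, most of them P450s under other symbols, none was called lower between the genotypes. Of 5 measured, 3 were higher on LSD and 4 on HSD in larvae labelled grn RNAi, where 27.1% and 17.9% of all genes tested were called higher. shd, which makes the active hormone 20-hydroxyecdysone in peripheral tissues, had log2 fold changes of 0.93 (adjusted p = 0.0042) and 1.59 (adjusted p = 0.000103). sad had 0.95 and 0.41, spok 0.52 and 0.24, and phm 0.14, adjusted p = 0.193 on LSD and 0.64, adjusted p = 5e-05 on HSD. nvd, a Rieske oxygenase, did not pass on either diet. No gene of this list passed between the diets in control larvae. With the grn RNAi label spok was lower on HSD than on LSD (-0.31, adjusted p = 0.0013) and phm higher (0.38, adjusted p = 0.00256). Among 9 genes for xenobiotic and nuclear receptor regulators the lower and higher calls were 2 and 1 on LSD and 3 and 0 on HSD. These are 22.2% and 11.1% on LSD, against 27.1% and 27.1% of all genes tested. On HSD they are 33.3% and 0%, against 21.2% and 17.9%. The ecdysone receptor EcR was lower on both diets (-0.60 and -0.69). The xenobiotic receptor Hr96 had -0.33, adjusted p = 0.00012 on LSD and -0.21, adjusted p = 0.00486 on HSD, and cnc, the fly Nrf2, -0.14, adjusted p = 0.0782 and -0.18, adjusted p = 0.0352.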

How the data were processed

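RNA from 16 libraries (4 groups of 4, each of 20 whole larvae) was sequenced after stranded poly(A) selection. By the authors, reads were trimmed (Trimmomatic), aligned to the fly genome (TopHat2 2.1.0), counted per gene by strand (HTSeq 2.7.6) and scaled between libraries. The deposited values are a signal, the normalized CPM of 9982 genes. The table also holds the authors' own fold changes and p-values, which were not used. Of the values, 100% were whole multiples of 1 read within 0.01 read, so that counts were recovered. Libraries held 24038848 to 32644817 reads, and 1 read was worth 0.0289 to 0.0442 normalized CPM. Groups came from the sample titles.

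A gene was kept when 3 or more libraries of any 1 group exceeded 1 normalized CPM (9950 genes). limma 3.58.1 (R 4.3.3) was fitted to log2 of the normalized CPM plus 0.5 with a mean for each group and a variance trend. All 16 libraries were in 1 fit, so that the comparisons share 1 estimate of the spread of each gene. The fit gave 5 two-sided comparisons, with Benjamini-Hochberg adjusted p under 0.05 over all 9950 genes. Fold changes are on the scale with that pseudocount, which understates those of low genes. The interaction is the genotype effect on HSD minus that on LSD, which equals the difference of the diet effects. The fit was tested on simulated data. Positions and coding lengths came from the release 6 annotation, with 69 of the symbols matched by identifier and 1 by symbol. The members and gene lists were chosen with earlier results of these data known.

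The rule named, in each comparison, up to 8 P450 genes each way with the largest log2 fold change, a mean of at least 10 and no overlap (up to 5 each way for the interaction, with no demand on overlap), the 10 with the highest level per kb, and a set of well-known members, 46 genes in all. The other members were named after their values were seen. Alternatives were pseudocounts of 0.1 and 1, no filter and a filter above 5, no trend, other scalings, the libraries of each comparison alone, a replicate block, edgeR 4.0.16 and DESeq2 1.42.0 on the recovered counts, a threshold of 0.01, and each library left out in turn. Leaving out both libraries that stood apart, and these with grn RNAi LSD replicate 3, was added after seeing the data. A call lost "without any 1 of" several libraries was lost when each of them was left out alone, and the range given is that of the log2 fold change. With 4 against 4 an exact permutation test reaches 0.0286 at the lowest. P-values are limma's, and replicates were compared before averaging: none were copies of each other.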

Additional observations from a re-analysis of the deposited data

Results flagged for a closer look

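In 14 of 276 gene and group combinations 1 library stood far from the other 3 by Dixon's criterion, where chance gives about 1 in 20. Control HSD replicate 3 was high in Cyp12e1 (18.5, others 17.1 to 17.2) and Cyp4d2 (12.6, others 10.5 to 10.7) and low in Cyp4g15 (7.66, others 9.54 to 9.73). Control HSD replicate 2 was low in Cyp4p1 (35.9, others 45.2 to 45.7) and high in Cyp4s3 (36.0, others 29.0 to 29.8). Control HSD replicate 4 was low in Cyp6a13 (8.54, others 10.0 to 10.2), and control LSD replicate 1 was high in Cyp9c1 (95.3, others 78.7 to 79.8). Among the libraries labelled grn RNAi, HSD replicate 2 was high in Cyp309a1 (12.8, others 10.2 to 10.5) and Cyp9b1 (10.2, others 7.47 to 7.82), and HSD replicate 4 was low in Cyp4d2 (7.41, others 8.33 to 8.43). HSD replicate 1 was high in Cyp9f2 (99.3, others 89.0 to 90.7) and held the 1 read of Cyp12d1-d (0.0337, others 0). LSD replicate 2 was high in Cyp4d14 (15.5, others 13 to 13.4), and LSD replicate 4 in Cyp6t1 (1.04, others 0.821 to 0.839).

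The genotype effect differed between the diets by the interaction term for 11 P450 genes. The difference was 1.06 for Cyp6g1, 1.01 for Cyp4d8, 0.91 for Cyp6w1, 0.76 for Cyp28a5, 0.61 for Cyp311a1, 0.58 for Cyp4ae1, 0.53 for Cyp6d5, 0.51 for Cyp4d2, 0.43 for Cyp6a21, 0.28 for Cyp12c1 and -1.03 for Cyp4d14, on the log2 scale. The last was the only negative one.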

How the results depend on the processing

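The P450 genes called numbered 34 and 37 for diet in control and labelled grn RNAi larvae, 58 and 49 for genotype on LSD and HSD, and 11 for genotype by diet. With any 1 library left out they ranged from 31 to 36, 33 to 38, 53 to 60, 44 to 51 and 8 to 16. Genotype by diet called 21 with DESeq2 and 5 at an adjusted p under 0.01, and the other totals stayed within 1.5 times. On the recovered counts edgeR called 34, 37, 58, 50 and 12 P450 genes. By clan, the counts for genotype by diet in clans 2, 3, 4 and the mitochondrial clan were 0, 5, 5 and 1. They became 1, 9, 9 and 2 with DESeq2, 0, 3, 2 and 0 at 0.01, and in clans 2, 4 and mitochondrial 1, 8 and 0 with CPM without the authors' scaling. Clan 2 had 1 with edgeR, and the mitochondrial clan 2 with median-of-ratios scaling and quantile normalization. Without both libraries that stood apart clan 2 had 1 and the mitochondrial clan 2, and without these and grn RNAi LSD replicate 3, clan 2 had 1 and clan 4 had 3. Clan 2 for diet in control (0) became 1 with DESeq2 and without both libraries or all 3, and for diet in larvae labelled grn RNAi (1) became 0 at 0.01 and without all 3. The mitochondrial clan for genotype on LSD (7) became 4 with CPM without scaling. With 1 library left out, the ranges for genotype by diet were 0 to 1, 4 to 8, 3 to 5 and 0 to 2 in clans 2, 3, 4 and mitochondrial. For clan 2 they were 0 to 1 for diet in control and 0 to 2 for diet in larvae labelled grn RNAi. The causes of these moves were not tested.

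The labels do not say that a replicate number marks a shared batch. Deviations of same-numbered libraries correlated between -0.512 and 0.798 and were not over 0.1 for every number in any comparison, so that the numbers were not taken as pairs. Those of replicates 2 and 3 were 0.455 and 0.55 for diet in control and 0.622 and 0.798 for diet in larvae labelled grn RNAi, and 3, 4, 2 and 3 of 8 libraries correlated best with their own number, in the order above. A replicate block gave 14 higher and 21 lower, 21 and 16, 6 and 51, 9 and 40, and 8 and 2, genotype by diet last. Under the block clan 2 had 1 for diet in control and 1 for genotype by diet, and the mitochondrial clan 0 for genotype by diet.

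Of the log2 fold changes that had passed, 4 changed sign, where values that had not passed were not counted. With quantile normalization Cyp4g1 turned to 0.06 on LSD and 0.02 on HSD and Cyp12a4 to 0.06 on HSD, and with CPM without scaling Cyp4ac1 turned to 0.02 on LSD. Both scalings moved the median of all genes, as given above. Over all single genes, comparisons and alternatives 10099 values kept their side of the threshold, 295 fell below it and 168 passed it. Counting error weighs most on the rarest transcripts, such as Cyp12d1-d with 1 read in 8 libraries labelled grn RNAi.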

Other observations

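Some P450 genes varied together among replicates of control larvae on HSD. Cyp9b2 was at 94.8, 99.9, 198 and 192 and Cyp6a23 at 88.8, 94.6, 181 and 139, so that replicates 3 and 4 lay above replicates 1 and 2 in both. Cyp304a1 had the opposite split, at 29.5, 29.6, 13.7 and 16.7. The labels give no feature that sets replicates 3 and 4 of this group apart.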
